A study of Mus musculus with 48 samples.

Results

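The constitutive proteasome subunits described here were 31 genes, 14 of the core particle (Psma1 to Psma7 and Psmb1 to Psmb7) and 17 of the regulatory particle (the ATPases Psmc1 to Psmc6 and the non-ATPase subunits Psmd1, Psmd2, Psmd3, Psmd4, Psmd6, Psmd7, Psmd8, Psmd11, Psmd12, Psmd13 and Psmd14). They were taken by symbol as a known complex, with earlier results of these data known, from the 40847 genes of each count table, and all 31 passed the filter on low counts in both sexes. Messenger RNA was sequenced from 48 mouse livers, 4 from each of 12 groups. The groups were hCYP2B6-Tg and Cyp2b-null mice, females and males, given 0, 1 or 10 mg/kg/day perfluorooctanesulfonic acid (PFOS) by gavage for 21 days from 10 to 12 weeks of age, and they are called 0-PFOS, 1-PFOS and 10-PFOS mice. Every mouse, the 0-PFOS mice included, ate normal chow, received the Tween 20 vehicle and was labelled as lacking Cyp2b9, Cyp2b10 and Cyp2b13, deleted by CRISPR on a C57Bl/6J background. The hCYP2B6-Tg mice also carried a human transgene with CYP2B6, CYP2A13 and CYP2F1, so no group was labelled as having an intact mouse Cyp2b cluster and genotype means presence or absence of the transgene.

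The proteasome degrades proteins that carry ubiquitin chains. Its core particle is a barrel of alpha and beta rings whose inner beta subunits cut peptide bonds, and its regulatory particle caps the barrel, binds and removes the ubiquitin and unfolds the substrate with a ring of ATPases. Each subunit is present in a fixed number per particle, and in mammalian cells the subunit genes are known to rise together through the transcription factor NFE2L1 when proteasome capacity falls short. The liver turns over much protein, including drug-metabolising enzymes, and contains mostly the constitutive form, while immune cells carry more of the immunoproteasome, in which the catalytic subunits Psmb5, Psmb6 and Psmb7 are replaced by Psmb8, Psmb9 and Psmb10.

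RefSeq promoter windows (build GRCm38.p6, not the GRCm39 of the count tables) were found for 25 of the 31 members. The 250 bases before the start were searched on both strands for TGACNNNGC, the core of the antioxidant response element that NFE2L1 and the related NRF2 bind. It occurred before 4 of these 25 genes, Psmb5, Psmb6, Psmc6 and Psmd12, and in 10.2% of all 32851 windows. Members had up to 2 windows each, so a count of genes and a share of windows are unlike measures. A match is a description of letters and not a shown binding site. The windows of Psmb5 and Psmb6 (catalytic subunits with a match near the start) and of Psmd8 and Psmd14 (the members with the largest median changes over the groups, no match) are given 5′ to 3′ on the strand of the gene, with the match in capitals. They lie at chr14:54617996-54618245 (Psmb5, minus strand), chr11:70525107-70525356 (Psmb6, plus strand), chr7:29180674-29180923 (Psmd8, minus strand) and chr2:61711444-61711693 (Psmd14, plus strand).
Psmb5: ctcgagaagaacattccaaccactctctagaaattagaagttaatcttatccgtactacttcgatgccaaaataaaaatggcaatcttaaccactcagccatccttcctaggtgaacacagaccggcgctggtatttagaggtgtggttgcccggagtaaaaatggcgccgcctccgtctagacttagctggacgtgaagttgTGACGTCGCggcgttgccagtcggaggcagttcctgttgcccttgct
Psmb6: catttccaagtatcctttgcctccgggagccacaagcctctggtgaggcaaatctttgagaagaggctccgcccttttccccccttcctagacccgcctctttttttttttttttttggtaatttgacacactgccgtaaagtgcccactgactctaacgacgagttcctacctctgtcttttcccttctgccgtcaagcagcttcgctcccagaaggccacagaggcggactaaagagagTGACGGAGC
Psmd8: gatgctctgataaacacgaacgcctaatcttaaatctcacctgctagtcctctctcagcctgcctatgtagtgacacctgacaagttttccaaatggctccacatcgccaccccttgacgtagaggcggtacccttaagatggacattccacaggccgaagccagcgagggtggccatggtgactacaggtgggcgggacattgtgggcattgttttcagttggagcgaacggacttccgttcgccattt
Psmd14: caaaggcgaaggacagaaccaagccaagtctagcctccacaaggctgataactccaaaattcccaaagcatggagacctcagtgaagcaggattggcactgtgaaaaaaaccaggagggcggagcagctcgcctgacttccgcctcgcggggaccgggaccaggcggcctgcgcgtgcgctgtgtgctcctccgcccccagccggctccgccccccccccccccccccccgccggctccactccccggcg
The match began 47 bases before the start in Psmb5 and 9 bases before it in Psmb6, both on the strand of the gene. By the median change over the 4 groups given below, the 4 genes with a match ranked 3 (Psmb5), 13 (Psmd12), 27 (Psmb6) and 28 (Psmc6) of the 31 members. Psmd8 and Psmd14, printed because they ranked 1 and 2, had no match. Any relation of the match to the changes was not tested.

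Library totals ran from 44416597 to 82615862 counts, and member counts ran from 968 to 14696 per library. Values are CPM, that is counts relative to the library total after TMM scaling. The 6 hepatocyte markers carried the label of the tissue, with none at 0. Their sum was lower at 10-PFOS than at 0-PFOS in all 4 groups, without overlap. It ran from 38530.0 to 56479 CPM in 10-PFOS females, against 84388 to 115988 CPM in 0-PFOS females, and from 35787 to 45158 CPM in 10-PFOS males, against 68592 to 82338 CPM in 0-PFOS males. The part of this in the members' changes was not tested. The 3 deleted mouse genes kept some counts in every library, summed over the 3 genes 1944 to 3210 per library in 10-PFOS females, against 54 to 356 in 0-PFOS females, and 1798 to 3538 in 10-PFOS males, against 54 to 334 in 0-PFOS males. The libraries thus held reads assigned to genes labelled as deleted, with more of them at 10-PFOS. The origin of these reads was not tested. The deleted stretches were not matched to these reads, and no value of the human transgene was used. In these bulk livers, fewer cells of a type and less RNA per cell cannot be told apart. All counts of 29 members were even numbers, and some of those of Psma4 and Psmb5 were odd. In the GENCODE annotation an exon of Psma4 overlaps AY074887 on the other strand, and no source used here gives the strand setting of the counting. Psmb5 overlaps the microRNA gene Mir686 on the same strand, where strand cannot tell the reads apart. The levels of both carry uncertainty from these overlaps. Exons of Psma5, Psmb7, Psmc3, Psmd3 and Psmd13 also overlap another gene there, on the other strand. Those of Psmd1 overlap Gm21972 on the same strand and Htr2b on the other.

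At 10-PFOS all 31 members rose against 0-PFOS in each of the 4 sex and genotype groups (edgeR quasi-likelihood test, Benjamini-Hochberg adjusted p below 0.05). The share of all tested genes that rose by the same test was 22.3% in hCYP2B6-Tg females, 19.1% in Cyp2b-null females, 24.1% in hCYP2B6-Tg males and 22.5% in Cyp2b-null males. The largest adjusted p among the members was 0.00237 in hCYP2B6-Tg females, 0.00695 in Cyp2b-null females, 0.0353 in hCYP2B6-Tg males and 0.035 in Cyp2b-null males. The median log2 change of the 31 members was 0.81 in hCYP2B6-Tg females, 0.69 in Cyp2b-null females, 0.55 in hCYP2B6-Tg males and 0.57 in Cyp2b-null males, beside medians over all tested genes of -0.05 in hCYP2B6-Tg females, -0.01 in Cyp2b-null females, -0.02 in hCYP2B6-Tg males and -0.01 in Cyp2b-null males. Single members ran from 0.44 (Psmc6) to 1.33 (Psmb5) in hCYP2B6-Tg females and from 0.51 (Psmd7) to 1.07 (Psmb5) in Cyp2b-null females. In males they ran from 0.18 to 1.16 in hCYP2B6-Tg and from 0.19 to 1.05 in Cyp2b-null mice, with Psmd7 lowest and Psmd8 highest in both.

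The 10-PFOS and 0-PFOS mice did not overlap for all 31 members in 3 of the 4 groups and for 30 in Cyp2b-null males, where Psmb7 overlapped. The share of all tested genes higher without overlap was 20.7% in hCYP2B6-Tg females, 19.0% in Cyp2b-null females, 23.1% in hCYP2B6-Tg males and 19.8% in Cyp2b-null males. Fewer members passed the fold threshold of the study (log2 change above 1 with an adjusted p below 0.05). They were 8 in hCYP2B6-Tg females (Psma7, Psmb5, Psmc4, Psmd1, Psmd4, Psmd8, Psmd11 and Psmd14), 3 in Cyp2b-null females (Psmb5, Psmd8 and Psmd14) and 1 in each group of males (Psmd8). The share of all tested genes past it was 5.64% in hCYP2B6-Tg females, 4.28% in Cyp2b-null females, 5.88% in hCYP2B6-Tg males and 4.74% in Cyp2b-null males. In males the calls of 3 members were lost in several alternatives, with adjusted p over all alternatives up to 0.198 in hCYP2B6-Tg and 0.203 in Cyp2b-null males for Psmd7, up to 0.0741 and 0.136 for Psmb7 in the same order, and up to 0.151 in Cyp2b-null males for Psmc5. Without a filter Psmd7 was not called in either group of males, nor Psmb7 and Psmc5 in Cyp2b-null males. In a fit of the compared groups alone Psmd7 was not called in Cyp2b-null males. In hCYP2B6-Tg males Psmd7 was not called without 10-PFOS replicate 1, 3 or 4 or 0-PFOS replicate 1, 3 or 4, and Psmb7 without 10-PFOS replicate 4 or 0-PFOS replicate 3 or 4. In Cyp2b-null males all 3 lost their call without 10-PFOS replicate 2 or 3 or 0-PFOS replicate 1 or 4, Psmb7 and Psmc5 also without 0-PFOS replicate 3 and Psmd7 also without 0-PFOS replicate 2. With library totals in place of TMM scaling, the median change of all tested genes itself was -0.17 in hCYP2B6-Tg females, -0.09 in Cyp2b-null females, 0.30 in hCYP2B6-Tg males and 0.23 in Cyp2b-null males. All 31 members lay above that median in each group under every scaling tried, and the median of the members was then 0.69, 0.62, 0.87 and 0.82 in the same order.

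**Figure D1:**
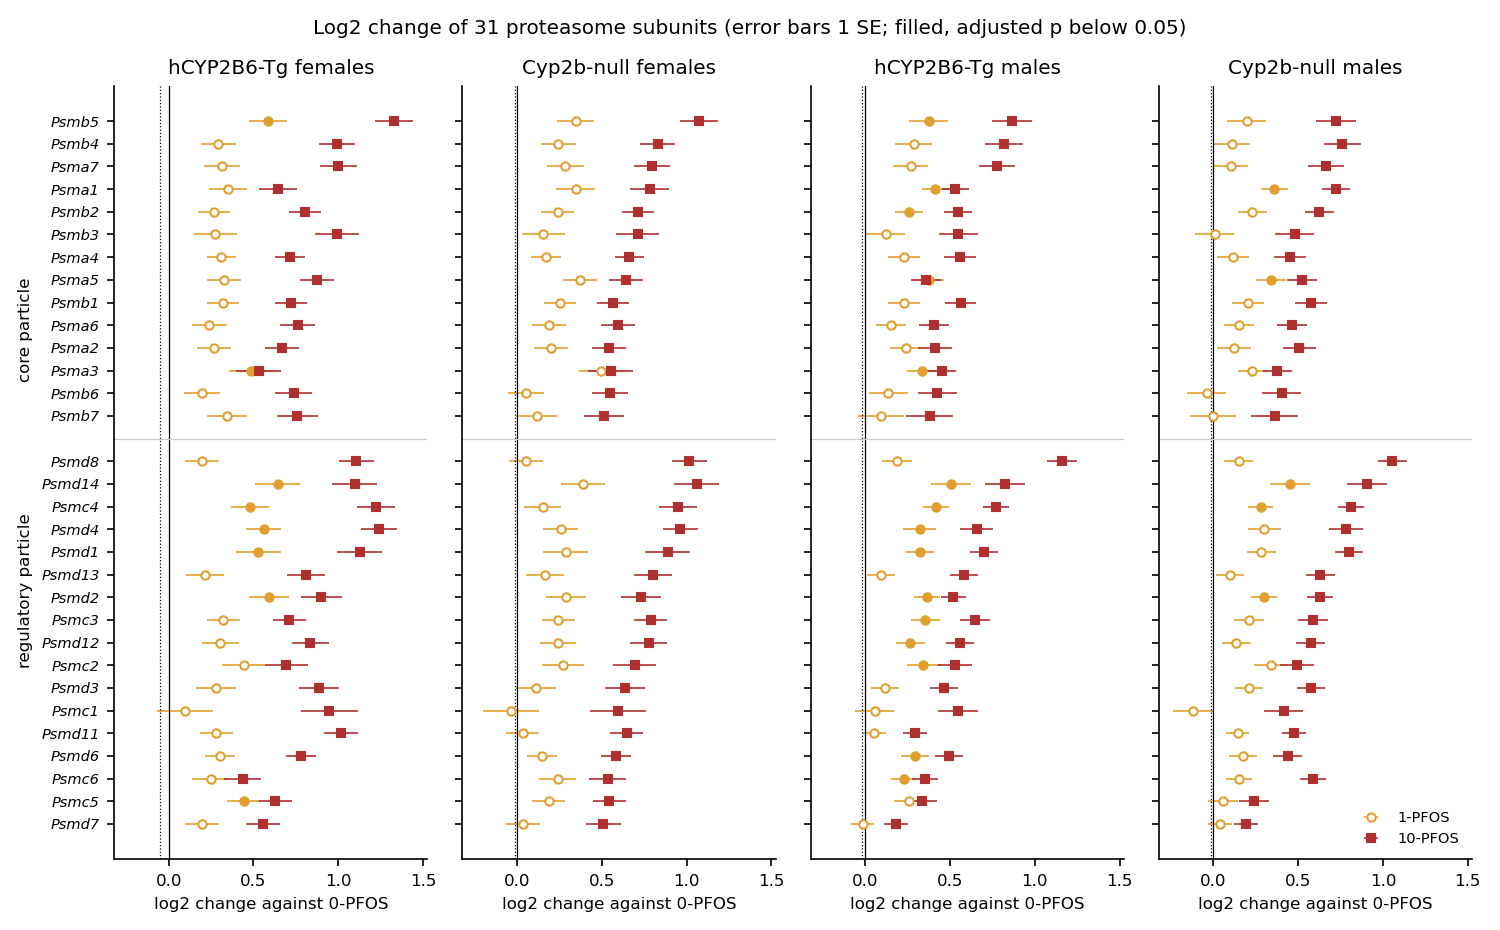
Log2 change of each of the 31 members at 1-PFOS (circles) and 10-PFOS (squares) against 0-PFOS, with 1 SE as error bars, core particle above and regulatory particle below. Filled symbols passed an adjusted p below 0.05, the dotted line is the median 10-PFOS change of all tested genes, and every square is filled in all 4 panels while no circle is filled in Cyp2b-null females.

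Psmb5, the subunit with chymotrypsin-like activity, had the largest median change of the core particle over the 4 groups, although Psmb4 was above it in Cyp2b-null males. Psmb5 stood at 66.0, 72.0, 63.7 and 58.0 CPM in 10-PFOS hCYP2B6-Tg females, against 25.2, 30.7, 21.0 and 26.4 CPM in 0-PFOS hCYP2B6-Tg females. Psmb5 stood at 58.2, 62.0, 65.9 and 56.5 CPM in 10-PFOS Cyp2b-null females, against 28.5, 29.0, 29.5 and 28.4 CPM in 0-PFOS Cyp2b-null females. No 10-PFOS female came near the 0-PFOS range, and the lowest treated female had 56.5 CPM. Psmb5 stood at 51.0, 57.8, 55.4 and 55.9 CPM in 10-PFOS hCYP2B6-Tg males, against 34.0, 30.6, 25.9 and 30.2 CPM in 0-PFOS hCYP2B6-Tg males. Psmb5 stood at 44.9, 55.8, 55.5 and 48.7 CPM in 10-PFOS Cyp2b-null males, against 32.4, 37.2, 28.7 and 25.8 CPM in 0-PFOS Cyp2b-null males. The males separated in the same way, with the smallest gap in Cyp2b-null males. The log2 changes with their SE were 1.33 ± 0.11 (adjusted p = 3.64e-09) in hCYP2B6-Tg females, 1.07 ± 0.11 (adjusted p = 1e-07) in Cyp2b-null females, 0.87 ± 0.12 (adjusted p = 1.66e-06) in hCYP2B6-Tg males and 0.72 ± 0.12 (adjusted p = 2.28e-05) in Cyp2b-null males. In folds these are 2.51 in hCYP2B6-Tg females, 2.10 in Cyp2b-null females, 1.82 in hCYP2B6-Tg males and 1.65 in Cyp2b-null males.

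Psmb6 and Psmb7, which carry the caspase-like and the trypsin-like activity, had smaller log2 changes than Psmb5 in every group, a difference that was not tested. Psmb6 stood at 91.2, 105, 94.1 and 101 CPM in 10-PFOS hCYP2B6-Tg females, against 54.7, 67.2, 56.2 and 56.9 CPM in 0-PFOS hCYP2B6-Tg females. Psmb6 stood at 92.0, 86.0, 104 and 82.3 CPM in 10-PFOS Cyp2b-null females, against 59.4, 63.2, 63.2 and 63.0 CPM in 0-PFOS Cyp2b-null females. The 8 treated females were all above the 8 untreated ones. Psmb6 stood at 76.6, 79.8, 80.8 and 88.5 CPM in 10-PFOS hCYP2B6-Tg males, against 66.4, 62.8, 52.9 and 60.5 CPM in 0-PFOS hCYP2B6-Tg males. Psmb6 stood at 70.7, 96.8, 81.6 and 81.2 CPM in 10-PFOS Cyp2b-null males, against 59.5, 70.3, 64.7 and 55.3 CPM in 0-PFOS Cyp2b-null males. Treated males lay above the untreated ones, but in Cyp2b-null males the lowest treated mouse stood just above the highest untreated one. The log2 changes of Psmb6 were 0.74 ± 0.11 (adjusted p = 8.58e-06) in hCYP2B6-Tg females, 0.55 ± 0.11 (adjusted p = 0.000336) in Cyp2b-null females, 0.43 ± 0.11 (adjusted p = 0.00358) in hCYP2B6-Tg males and 0.40 ± 0.11 (adjusted p = 0.00626) in Cyp2b-null males. Psmb7 stood at 118, 128, 119 and 120.5 CPM in 10-PFOS hCYP2B6-Tg females, against 73.2, 85.4, 61.9 and 66.9 CPM in 0-PFOS hCYP2B6-Tg females. Psmb7 stood at 103, 114, 125 and 105 CPM in 10-PFOS Cyp2b-null females, against 76.4, 76.0, 80.6 and 80.1 CPM in 0-PFOS Cyp2b-null females. Females separated again. Psmb7 stood at 94.7, 108, 105 and 115 CPM in 10-PFOS hCYP2B6-Tg males, against 84.2, 84.3, 73.6 and 83.5 CPM in 0-PFOS hCYP2B6-Tg males. Psmb7 stood at 89.8, 117, 109 and 101 CPM in 10-PFOS Cyp2b-null males, against 81.5, 91.2, 81.5 and 70.7 CPM in 0-PFOS Cyp2b-null males. In Cyp2b-null males the lowest treated mouse stood below the highest untreated one, and this was the 1 overlap among the members at 10-PFOS. Its log2 changes were 0.76 ± 0.12 (adjusted p = 2.07e-05) in hCYP2B6-Tg females, 0.51 ± 0.12 (adjusted p = 0.00169) in Cyp2b-null females, 0.38 ± 0.14 (adjusted p = 0.0242) in hCYP2B6-Tg males and 0.36 ± 0.14 (adjusted p = 0.035) in Cyp2b-null males.

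Psmb4, a structural subunit of the beta ring, came after Psmb5 in the core particle by its median change over the groups. Psmb4 stood at 163, 179.7, 174 and 158 CPM in 10-PFOS hCYP2B6-Tg females, against 88.3, 94.7, 78.5 and 77.8 CPM in 0-PFOS hCYP2B6-Tg females. Psmb4 stood at 156, 139.9, 174 and 133 CPM in 10-PFOS Cyp2b-null females, against 87.9, 75.5, 90.4 and 85.3 CPM in 0-PFOS Cyp2b-null females. No treated female overlapped the untreated ones. Psmb4 stood at 133, 130.3, 122 and 140.4 CPM in 10-PFOS hCYP2B6-Tg males, against 80.8, 83.5, 62.4 and 71.0 CPM in 0-PFOS hCYP2B6-Tg males. Psmb4 stood at 126, 160.1, 129 and 119.8 CPM in 10-PFOS Cyp2b-null males, against 71.3, 85.1, 82.6 and 77.1 CPM in 0-PFOS Cyp2b-null males. The same held in males. The log2 changes were 0.99 ± 0.10 (adjusted p = 8.3e-08) in hCYP2B6-Tg females, 0.83 ± 0.10 (adjusted p = 1.41e-06) in Cyp2b-null females, 0.82 ± 0.11 (adjusted p = 1.42e-06) in hCYP2B6-Tg males and 0.76 ± 0.11 (adjusted p = 4.73e-06) in Cyp2b-null males. Of the other structural beta subunits, the median log2 change over the 4 groups was 0.67 for Psmb2, 0.63 for Psmb3 and 0.57 for Psmb1. The alpha subunits form the outer rings and the gate through which substrates enter. Psma7 led them with 0.79, followed by Psma1 with 0.68, Psma4 with 0.61, Psma5 with 0.58, Psma6 with 0.53, Psma2 with 0.53 and Psma3 with 0.49.

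**Figure D2:**
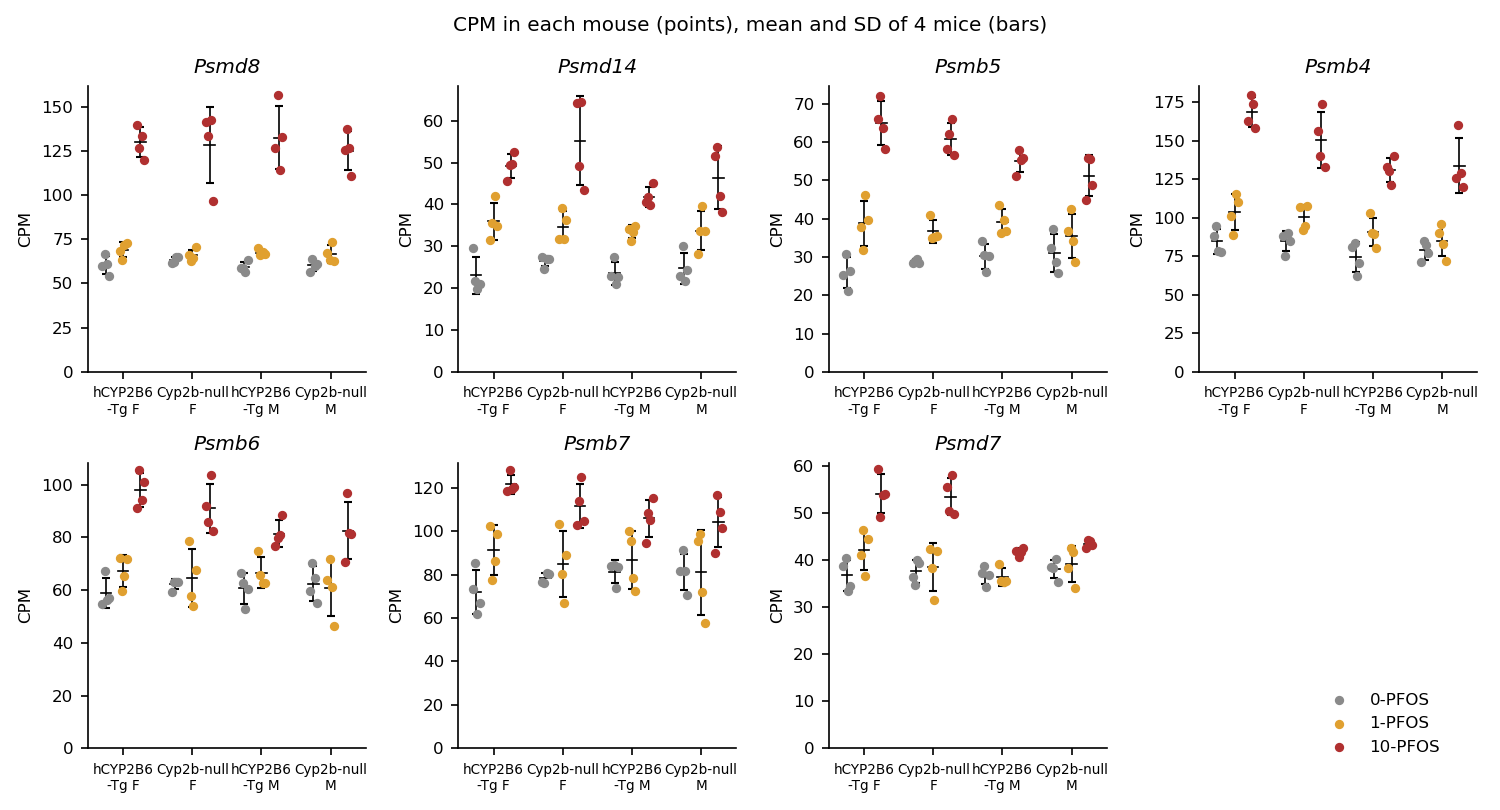
CPM of the 7 members described mouse by mouse, with each mouse as a point and the mean and SD of 4 mice as bars, for 0-PFOS (grey), 1-PFOS (yellow) and 10-PFOS (red) in hCYP2B6-Tg and Cyp2b-null females (F) and males (M). Red points lie above grey points throughout except for Psmb7 in Cyp2b-null males, and the 1-PFOS points of Psmd8 stay near the grey ones, while the 1-PFOS means of Psmd14 lie between those at 0-PFOS and 10-PFOS.

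In the regulatory particle, Psmd8, a non-ATPase subunit of the lid, had the largest median change of all 31 members and the smallest range between the 4 groups. Psmd8 stood at 139.8, 127, 133 and 119.7 CPM in 10-PFOS hCYP2B6-Tg females, against 60.0, 66.5, 60.7 and 54.0 CPM in 0-PFOS hCYP2B6-Tg females. Psmd8 stood at 141, 133, 142 and 96.3 CPM in 10-PFOS Cyp2b-null females, against 61.6, 62.2, 64.8 and 65.0 CPM in 0-PFOS Cyp2b-null females. Treated females stood far apart from untreated ones, and the lowest of them was a Cyp2b-null female. Psmd8 stood at 127, 156, 114 and 133 CPM in 10-PFOS hCYP2B6-Tg males, against 58.6, 58.4, 56.7 and 63.2 CPM in 0-PFOS hCYP2B6-Tg males. Psmd8 stood at 126, 137, 127 and 111 CPM in 10-PFOS Cyp2b-null males, against 56.2, 64.0, 59.8 and 60.8 CPM in 0-PFOS Cyp2b-null males. The separation in males was as clear. The log2 changes were 1.11 ± 0.10 (adjusted p = 1.5e-08) in hCYP2B6-Tg females, 1.02 ± 0.10 (adjusted p = 6.75e-08) in Cyp2b-null females, 1.16 ± 0.09 (adjusted p = 1.51e-10) in hCYP2B6-Tg males and 1.05 ± 0.09 (adjusted p = 9.03e-10) in Cyp2b-null males.

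Psmd14, the metalloprotease that removes ubiquitin chains from the substrate, followed. Psmd14 stood at 45.6, 49.4, 49.5 and 52.4 CPM in 10-PFOS hCYP2B6-Tg females, against 29.6, 21.7, 19.9 and 20.9 CPM in 0-PFOS hCYP2B6-Tg females. Psmd14 stood at 64.1, 49.1, 64.4 and 43.4 CPM in 10-PFOS Cyp2b-null females, against 27.4, 24.6, 26.9 and 27.1 CPM in 0-PFOS Cyp2b-null females. The treated Cyp2b-null females spread more widely than the treated hCYP2B6-Tg females, and neither group overlapped its untreated mice. Psmd14 stood at 40.5, 41.7, 39.8 and 45.1 CPM in 10-PFOS hCYP2B6-Tg males, against 22.9, 27.4, 21.1 and 22.8 CPM in 0-PFOS hCYP2B6-Tg males. Psmd14 stood at 51.5, 53.8, 41.9 and 38.1 CPM in 10-PFOS Cyp2b-null males, against 22.9, 30.1, 21.7 and 24.3 CPM in 0-PFOS Cyp2b-null males. No treated male overlapped the untreated ones. The log2 changes were 1.10 ± 0.13 (adjusted p = 6.36e-07) in hCYP2B6-Tg females, 1.06 ± 0.13 (adjusted p = 1.35e-06) in Cyp2b-null females, 0.83 ± 0.12 (adjusted p = 3.69e-06) in hCYP2B6-Tg males and 0.91 ± 0.12 (adjusted p = 1.21e-06) in Cyp2b-null males.

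Psmd7, the partner of Psmd14 in the lid that lacks its enzyme activity, had the smallest median change over the 4 groups. Psmd7 stood at 59.4, 49.3, 53.9 and 54.1 CPM in 10-PFOS hCYP2B6-Tg females, against 38.8, 40.5, 33.6 and 34.5 CPM in 0-PFOS hCYP2B6-Tg females. Psmd7 stood at 55.7, 50.6, 58.2 and 49.9 CPM in 10-PFOS Cyp2b-null females, against 36.5, 34.7, 40.0 and 39.4 CPM in 0-PFOS Cyp2b-null females. The females still separated. Psmd7 stood at 42.0, 40.7, 41.7 and 42.7 CPM in 10-PFOS hCYP2B6-Tg males, against 37.4, 38.9, 34.3 and 36.9 CPM in 0-PFOS hCYP2B6-Tg males. Psmd7 stood at 42.6, 44.4, 44.1 and 43.2 CPM in 10-PFOS Cyp2b-null males, against 38.6, 38.4, 40.2 and 35.5 CPM in 0-PFOS Cyp2b-null males. In males the treated mice lay close above the untreated ones, without overlap. The log2 changes were 0.56 ± 0.10 (adjusted p = 0.000123) in hCYP2B6-Tg females, 0.51 ± 0.10 (adjusted p = 0.000409) in Cyp2b-null females, 0.18 ± 0.07 (adjusted p = 0.0353) in hCYP2B6-Tg males and 0.19 ± 0.07 (adjusted p = 0.0294) in Cyp2b-null males. The change of Psmd14 was larger than that of its partner in every group, and the difference between the genes was not tested.

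The 6 ATPases of the base ring had median log2 changes over the groups of 0.88 for Psmc4, 0.68 for Psmc3, 0.61 for Psmc2, 0.57 for Psmc1, 0.49 for Psmc6 and 0.44 for Psmc5. Psmd4, a receptor for ubiquitin chains, had 0.87. Psmd1 and Psmd2, the large scaffolds of the base, had 0.84 and 0.68. The other lid subunits had 0.72 (Psmd13), 0.68 (Psmd12), 0.61 (Psmd3), 0.56 (Psmd11) and 0.54 (Psmd6). Psmd11 had the widest range between the 4 groups, with 1.02 ± 0.10 (adjusted p = 3.13e-08) in hCYP2B6-Tg females, 0.65 ± 0.10 (adjusted p = 1.87e-05) in Cyp2b-null females, 0.29 ± 0.07 (adjusted p = 0.00103) in hCYP2B6-Tg males and 0.47 ± 0.07 (adjusted p = 5.22e-06) in Cyp2b-null males.

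The median changes of the core and the regulatory particle lay close together. The median log2 change of the 17 regulatory members was 0.89 in hCYP2B6-Tg females, 0.73 in Cyp2b-null females, 0.55 in hCYP2B6-Tg males and 0.59 in Cyp2b-null males. That of the 14 core members was 0.76 in hCYP2B6-Tg females, 0.65 in Cyp2b-null females, 0.54 in hCYP2B6-Tg males and 0.51 in Cyp2b-null males. The medians of all tested genes, given above, lay between -0.05 and -0.01. The core median minus the regulatory median was -0.13 in hCYP2B6-Tg females, -0.08 in Cyp2b-null females, -0.01 in hCYP2B6-Tg males and -0.07 in Cyp2b-null males, without a test because the members were chosen together. It came to 0.00 in Cyp2b-null females without 10-PFOS replicate 1 and to 0.05 in hCYP2B6-Tg males without 0-PFOS replicate 4, and was -0.14 in Cyp2b-null females without 10-PFOS replicate 4. Within each mouse, the mean log2 CPM of the core minus that of the regulatory particle does not depend on library scaling. It averaged 0.06 ± 0.07 at 10-PFOS against 0.12 ± 0.11 at 0-PFOS in hCYP2B6-Tg females, -0.01 ± 0.06 at 10-PFOS against 0.05 ± 0.02 at 0-PFOS in Cyp2b-null females, 0.08 ± 0.03 at 10-PFOS against 0.10 ± 0.09 at 0-PFOS in hCYP2B6-Tg males and 0.03 ± 0.11 at 10-PFOS against 0.08 ± 0.06 at 0-PFOS in Cyp2b-null males (SD, n = 4 each). Ranges overlapped in 3 of the 4 groups, and in Cyp2b-null females all 4 treated mice (-0.10 to 0.02) were below the untreated ones (0.04 to 0.07). The mean level of each particle itself did not overlap between 10-PFOS and 0-PFOS mice in any group.

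**Figure D3:**
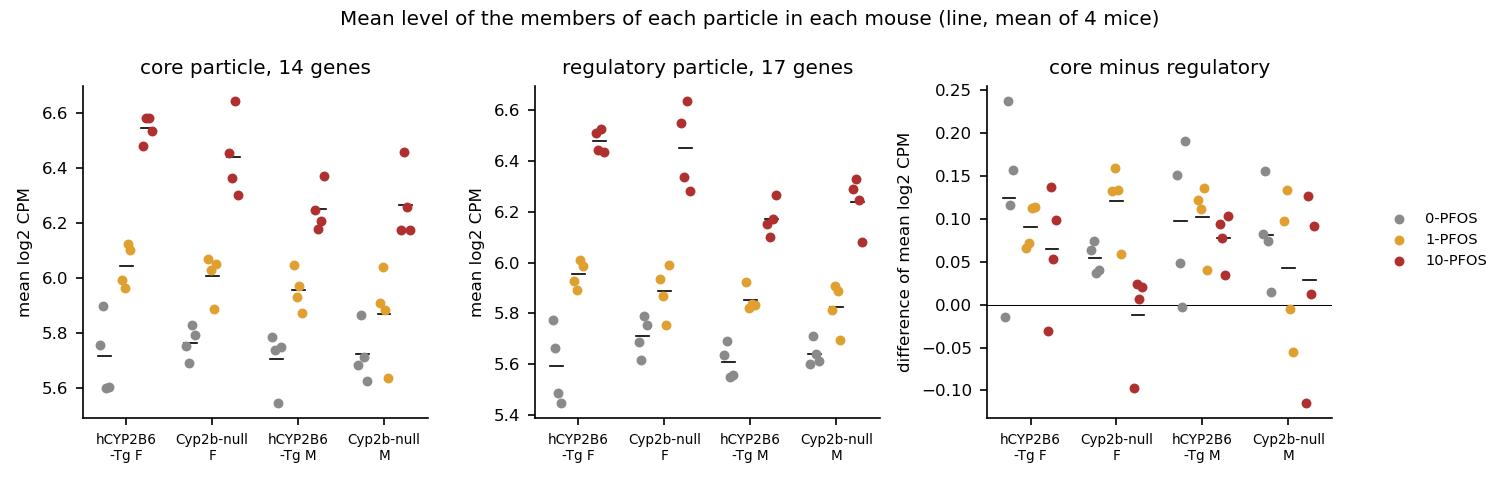
Mean log2 CPM of the 14 core genes and of the 17 regulatory genes in each mouse, and their difference, for 0-PFOS (grey), 1-PFOS (yellow) and 10-PFOS (red) mice, with the mean of 4 mice as a line. Levels of both particles are highest at 10-PFOS in each sex and genotype, and the differences stay between -0.12 and 0.24.

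At 1-PFOS the changes were smaller and fewer members passed the test. In hCYP2B6-Tg females 8 members rose (Psma3, Psmb5, Psmc4, Psmc5, Psmd1, Psmd2, Psmd4 and Psmd14) beside 1.69% of all tested genes, and in Cyp2b-null females 0 rose beside 0.432%. In hCYP2B6-Tg males 15 rose (Psma1, Psma3, Psma5, Psmb2, Psmb5, Psmc2, Psmc3, Psmc4, Psmc6, Psmd1, Psmd2, Psmd4, Psmd6, Psmd12 and Psmd14) beside 8.72%, and in Cyp2b-null males 5 (Psma1, Psma5, Psmc4, Psmd2 and Psmd14) beside 2.32%. No member fell. The count of 0 in Cyp2b-null females came with 16 members at an unadjusted p below 0.05, beside 14.4% of all tested genes, and with 2 calls by DESeq2, and 30 of the 31 log2 changes there were above 0. Median log2 changes were 0.31 in hCYP2B6-Tg females, 0.24 in Cyp2b-null females, 0.26 in hCYP2B6-Tg males and 0.15 in Cyp2b-null males, beside -0.02 in hCYP2B6-Tg females, -0.01 in Cyp2b-null females, 0.00 in hCYP2B6-Tg males and 0.01 in Cyp2b-null males for all tested genes. Members above all untreated mice numbered 11 in hCYP2B6-Tg females, 13 in Cyp2b-null females, 17 in hCYP2B6-Tg males and 10 in Cyp2b-null males, beside 3.77% in hCYP2B6-Tg females, 5.63% in Cyp2b-null females, 11.2% in hCYP2B6-Tg males and 4.70% in Cyp2b-null males of all tested genes.

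The counts at 1-PFOS depended on single libraries and on the fit. In hCYP2B6-Tg females 8 became 4 without 0-PFOS replicate 3, 0-PFOS replicate 4 or 1-PFOS replicate 3, and 0 in a fit of the compared groups alone. In Cyp2b-null males 5 became 2, 3, 1 and 1 without 0-PFOS replicates 1 to 4 and 3, 2 and 0 without 1-PFOS replicates 1 to 3. In hCYP2B6-Tg males 15 became 8 without 0-PFOS replicate 4 or 1-PFOS replicate 3, 9 without 1-PFOS replicate 1, and 3 with library totals in place of TMM scaling. Psmd14, Psmc4 and Psmd2 were called in 3 of the 4 groups. Psmd14 stood at 31.5, 35.6, 42.0 and 34.8 CPM in 1-PFOS hCYP2B6-Tg females, against 29.6, 21.7, 19.9 and 20.9 CPM in 0-PFOS hCYP2B6-Tg females, and at 34.1, 31.3, 33.5 and 35.0 CPM in 1-PFOS hCYP2B6-Tg males, against 22.9, 27.4, 21.1 and 22.8 CPM in 0-PFOS hCYP2B6-Tg males. These 1-PFOS hCYP2B6-Tg mice did not overlap the untreated ones in either sex. Psmd14 stood at 31.7, 39.2, 31.7 and 36.2 CPM in 1-PFOS Cyp2b-null females, against 27.4, 24.6, 26.9 and 27.1 CPM in 0-PFOS Cyp2b-null females, and at 28.2, 33.7, 39.6 and 33.6 CPM in 1-PFOS Cyp2b-null males, against 22.9, 30.1, 21.7 and 24.3 CPM in 0-PFOS Cyp2b-null males. In Cyp2b-null males 1 treated mouse lay below the highest untreated one, and the Cyp2b-null females did not overlap. The log2 changes of Psmd14 at 1-PFOS were 0.64 ± 0.13 (adjusted p = 0.00743) in hCYP2B6-Tg females, 0.39 ± 0.13 (adjusted p = 0.176) in Cyp2b-null females, 0.51 ± 0.12 (adjusted p = 0.00526) in hCYP2B6-Tg males and 0.45 ± 0.12 (adjusted p = 0.0314) in Cyp2b-null males. Those of Psmd8, the member with the largest median change at 10-PFOS over the groups, were 0.20 ± 0.10 (adjusted p = 0.324) in hCYP2B6-Tg females, 0.05 ± 0.10 (adjusted p = 0.833) in Cyp2b-null females, 0.19 ± 0.09 (adjusted p = 0.147) in hCYP2B6-Tg males and 0.15 ± 0.09 (adjusted p = 0.352) in Cyp2b-null males, so that its rise was not called at 1-PFOS in any group.

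Between the doses, 10-PFOS mice had more of 27 members than 1-PFOS mice in hCYP2B6-Tg females (19.1% of all tested genes), of 30 in Cyp2b-null females (17.8%), of 21 in hCYP2B6-Tg males (18.8%) and of 26 in Cyp2b-null males (19.2%). Psma3 was the member that missed the test in all 4 groups, with log2 changes between the doses of 0.04 in hCYP2B6-Tg females, 0.06 in Cyp2b-null females, 0.12 in hCYP2B6-Tg males and 0.15 in Cyp2b-null males. Psmd8 had the largest changes between the doses, 0.91 in hCYP2B6-Tg females, 0.96 in Cyp2b-null females, 0.97 in hCYP2B6-Tg males and 0.91 in Cyp2b-null males. Comparisons with 0-PFOS share these mice.

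The order of the members was similar between groups of mice that share no library. Over the 31 members, Pearson's r of the 10-PFOS log2 changes was 0.80 between hCYP2B6-Tg and Cyp2b-null females, 0.86 between hCYP2B6-Tg and Cyp2b-null males, 0.68 between hCYP2B6-Tg females and males and 0.87 between Cyp2b-null females and males. It was 0.66 between hCYP2B6-Tg females and Cyp2b-null males and 0.86 between Cyp2b-null females and hCYP2B6-Tg males. These are correlations across genes, which share length and base composition in all libraries, and no r over all tested genes is given beside them. The members also varied together between mice of 1 group. After removal of group means, the median r over the 465 pairs of members was 0.51 in the 24 female and 0.50 in the 24 male libraries, beside -0.00182 in females and -0.00123 in males over pairs of every 5th tested gene. Between members and the 8 chaperonin subunits it was 0.30 in females and 0.22 in males, and within the core particle it was 0.57 in females and 0.69 in males. Over pairs of every 5th gene, positive and negative r can cancel in the median. Those genes were not matched to the members for level, so they are not a matched background.

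The genotypes did not differ in any member by the test. At 0-PFOS, 1-PFOS and 10-PFOS, 0 of 31 members were called between hCYP2B6-Tg and Cyp2b-null mice in either sex, whereas 0%, 0% and 3.59% of all tested genes were called at these doses in females and 0%, 0.889% and 0.0556% in males. At an unadjusted p below 0.05 there were 2, 0 and 0 members in females at these doses, beside 5.12%, 6.26% and 18.4% of all tested genes, and 0, 1 and 2 in males, beside 6.84%, 11.3% and 8.36%. DESeq2 also called 0 in each. The interaction of genotype with dose called 0 members at either dose in either sex, beside 0% of all tested genes in females at both doses, 0.0556% in males at 1-PFOS and 0% in males at 10-PFOS. DESeq2 called 0 as well. An unadjusted p below 0.05 was reached by 1 member in females at each dose, beside 3.97% and 10.3% of all tested genes at 1-PFOS and 10-PFOS, and by 0 and 1 members in males at these doses, beside 8.62% and 8.46%. The member with the smallest of these p-values was Psmd11, whose 10-PFOS log2 change was 0.37 ± 0.14 larger with the transgene, that is in hCYP2B6-Tg females (adjusted p = 0.37, edgeR). A p that misses the threshold does not show that the genotypes responded alike. At 1-PFOS in females same-numbered mice of both genotypes deviated together, and no test paired them.

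Between the sexes, in 1 fit of all 48 libraries, 4 members of hCYP2B6-Tg mice had a larger 10-PFOS change in females than in males, beside 2.75% of all tested genes in that direction. The differences in log2 change (females minus males) were 0.70 ± 0.11 for Psmd11 (edgeR adjusted p = 0.000111), 0.56 ± 0.14 for Psmd4 (adjusted p = 0.0107), 0.50 ± 0.13 for Psma5 (adjusted p = 0.015) and 0.43 ± 0.13 for Psmc4 (adjusted p = 0.0356). Psmd11 stood at 139, 133, 133 and 119 CPM in 10-PFOS hCYP2B6-Tg females, against 76.4, 68.5, 58.6 and 55.8 CPM in 0-PFOS females, and at 86.8, 84.1, 88.5 and 93.2 CPM in 10-PFOS hCYP2B6-Tg males, against 73.9, 73.9, 71.1 and 68.7 CPM in 0-PFOS males. In Cyp2b-null mice 0 members differed by sex, with 3 at an unadjusted p below 0.05 (11.5% of all tested genes) and 0 by DESeq2, beside calls of 0.949% of all tested genes in either direction. The sex difference depended on the scaling of the libraries. In the fit of males alone, TMM factors ran from 1.12 to 1.21 in 10-PFOS and from 0.87 to 1.03 in 0-PFOS hCYP2B6-Tg males, and without these factors none of the 4 genes was called and 2 other members, Psmc6 and Psmd8, were called with a larger change in males. Without scaling factors the median difference of all tested genes itself was -0.44. The count was also 8 without 0-PFOS hCYP2B6-Tg female replicate 1 and 7 without replicate 2.

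The immunoproteasome counterparts of the catalytic subunits did not rise. Psmb8, Psmb9 and Psmb10 fell at 10-PFOS in all 4 groups, where 24.5% in hCYP2B6-Tg females, 17.8% in Cyp2b-null females, 23.9% in hCYP2B6-Tg males and 21.6% in Cyp2b-null males of all tested genes fell. Psmb8, which replaces Psmb5, averaged 5.69 ± 1.88 CPM at 10-PFOS against 23.0 ± 5.07 CPM at 0-PFOS in hCYP2B6-Tg females, 5.21 ± 2.04 CPM at 10-PFOS against 21.8 ± 2.81 CPM at 0-PFOS in Cyp2b-null females, 3.68 ± 0.580 CPM at 10-PFOS against 12.3 ± 0.531 CPM at 0-PFOS in hCYP2B6-Tg males and 3.30 ± 0.320 CPM at 10-PFOS against 13.3 ± 1.79 CPM at 0-PFOS in Cyp2b-null males (SD, n = 4 each). The treated and untreated mice did not overlap in any group. Its log2 changes were -2.01 ± 0.23 (adjusted p = 2.92e-07) in hCYP2B6-Tg females, -2.06 ± 0.23 (adjusted p = 2.89e-07) in Cyp2b-null females, -1.74 ± 0.16 (adjusted p = 6.88e-09) in hCYP2B6-Tg males and -2.01 ± 0.17 (adjusted p = 9.95e-10) in Cyp2b-null males. Psmb9, which replaces Psmb6, had log2 changes of -1.40 ± 0.23 (adjusted p = 3.51e-05) in hCYP2B6-Tg females, -2.02 ± 0.23 (adjusted p = 4.76e-07) in Cyp2b-null females, -0.77 ± 0.20 (adjusted p = 0.00261) in hCYP2B6-Tg males and -1.59 ± 0.21 (adjusted p = 1.05e-06) in Cyp2b-null males. Psmb10, which replaces Psmb7, had -1.31 ± 0.21 (adjusted p = 2.1e-05) in hCYP2B6-Tg females, -1.32 ± 0.21 (adjusted p = 2.58e-05) in Cyp2b-null females, -0.69 ± 0.11 (adjusted p = 2.33e-05) in hCYP2B6-Tg males and -0.97 ± 0.11 (adjusted p = 2.54e-07) in Cyp2b-null males. At 1-PFOS none of the 3 passed the test except Psmb9 in hCYP2B6-Tg males, which was higher (0.87 ± 0.20, adjusted p = 0.00443).

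The ratio of the Psmb5 to the Psmb8 count within a mouse, which needs no scaling and is not corrected for gene length, averaged 12.4 ± 4.07 at 10-PFOS against 1.17 ± 0.325 at 0-PFOS in hCYP2B6-Tg females, 13.3 ± 5.66 at 10-PFOS against 1.34 ± 0.176 at 0-PFOS in Cyp2b-null females, 15.3 ± 2.82 at 10-PFOS against 2.45 ± 0.310 at 0-PFOS in hCYP2B6-Tg males and 15.7 ± 2.55 at 10-PFOS against 2.39 ± 0.659 at 0-PFOS in Cyp2b-null males (SD, n = 4 each). At 1-PFOS it averaged 2.84 ± 0.461 in hCYP2B6-Tg females, 2.21 ± 0.483 in Cyp2b-null females, 3.45 ± 0.624 in hCYP2B6-Tg males and 3.11 ± 0.951 in Cyp2b-null males, and the 1-PFOS mice overlapped the 0-PFOS mice in Cyp2b-null males alone. All 10-PFOS mice lay between 6.98 and 20.5, and all 0-PFOS mice between 0.690 and 3.38. The ratio of Psmb6 to Psmb9 counts averaged 24.2 ± 6.97 at 10-PFOS against 5.39 ± 1.81 at 0-PFOS in hCYP2B6-Tg females, 29.1 ± 9.54 at 10-PFOS against 4.65 ± 0.679 at 0-PFOS in Cyp2b-null females, 27.9 ± 7.09 at 10-PFOS against 12.0 ± 3.09 at 0-PFOS in hCYP2B6-Tg males and 36.8 ± 9.03 at 10-PFOS against 9.76 ± 3.51 at 0-PFOS in Cyp2b-null males. That of Psmb7 to Psmb10 averaged 10.8 ± 2.60 at 10-PFOS against 2.47 ± 0.363 at 0-PFOS in hCYP2B6-Tg females, 10.8 ± 3.30 at 10-PFOS against 2.87 ± 0.462 at 0-PFOS in Cyp2b-null females, 11.7 ± 0.739 at 10-PFOS against 5.57 ± 0.536 at 0-PFOS in hCYP2B6-Tg males and 12.6 ± 1.42 at 10-PFOS against 5.11 ± 1.29 at 0-PFOS in Cyp2b-null males. Neither ratio overlapped between 10-PFOS and 0-PFOS mice in any of the 4 groups. At 1-PFOS the ratio of Psmb6 to Psmb9 averaged 8.51 ± 1.44 in hCYP2B6-Tg females, 5.66 ± 0.648 in Cyp2b-null females, 7.17 ± 1.07 in hCYP2B6-Tg males and 8.21 ± 1.95 in Cyp2b-null males. It was below 0-PFOS in both groups of males, without overlap in hCYP2B6-Tg males, and the 1-PFOS and 0-PFOS mice overlapped in the other 3 groups. The ratio of Psmb7 to Psmb10 averaged 5.22 ± 0.636 in hCYP2B6-Tg females, 3.81 ± 0.674 in Cyp2b-null females, 6.11 ± 0.678 in hCYP2B6-Tg males and 6.32 ± 1.34 in Cyp2b-null males at 1-PFOS, higher than at 0-PFOS without overlap in hCYP2B6-Tg females alone. Markers of resident macrophages of the liver (Kupffer cells) had a lower median sum at 10-PFOS than at 0-PFOS in all 4 groups. At 1-PFOS 0 of 6 were called in any group, hCYP2B6-Tg males included, where Psmb9 rose. The sum of the 6 Kupffer markers ran from 90.1 to 152 CPM in 10-PFOS hCYP2B6-Tg females, against 213 to 332 CPM in 0-PFOS ones, and from 70.7 to 127 CPM in 10-PFOS Cyp2b-null females, against 228 to 266 CPM. In males it ran from 52.4 to 68.3 CPM in 10-PFOS hCYP2B6-Tg mice, against 85.1 to 123 CPM, and from 47.4 to 60.0 CPM in 10-PFOS Cyp2b-null mice, against 55.7 to 113 CPM. By the test, 5 of 6 fell in hCYP2B6-Tg females, 6 of 6 fell in Cyp2b-null females, 2 of 6 fell in hCYP2B6-Tg males and 3 of 6 fell in Cyp2b-null males. Of all tested genes 24.5%, 17.8%, 23.9% and 21.6% fell in the same order of groups. Of the 6 lymphocyte markers, 1 passed the filter in females (Cd79a, not called) and 0 in males. The part of these cells in the fall of Psmb8, Psmb9 and Psmb10, or in the rise of the constitutive members, was not tested. The thymus-specific Psmb11 did not pass the filter, and Psma8, of the testis form, averaged at most 1.72 CPM at 10-PFOS, with log2 changes of 1.59 ± 0.57 (adjusted p = 0.0249) in hCYP2B6-Tg females, 0.35 ± 0.56 (adjusted p = 0.663) in Cyp2b-null females, 1.28 ± 0.52 (adjusted p = 0.0451) in hCYP2B6-Tg males and 1.74 ± 0.54 (adjusted p = 0.0113) in Cyp2b-null males. In each sex Psma8 passed the filter only through the 10-PFOS hCYP2B6-Tg mice. Its calls in hCYP2B6-Tg mice are therefore not evidence of a rise. In males it ran from 0.79 to 0.99 CPM in 10-PFOS hCYP2B6-Tg mice and from 0.58 to 1.52 CPM in 10-PFOS Cyp2b-null mice. The call in Cyp2b-null males did not come through its own group, but its levels too lay near the filter limit, and it is not taken as evidence either.

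**Figure D4:**
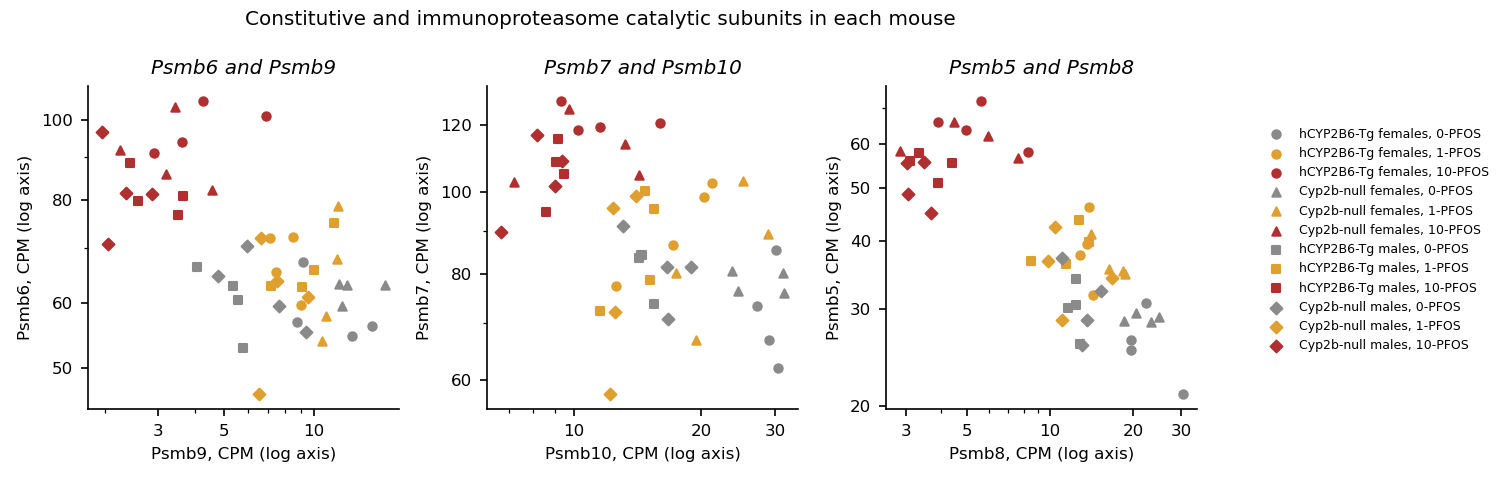
CPM of each constitutive catalytic subunit (vertical log axis) against its immunoproteasome counterpart (horizontal log axis), 1 point per mouse, with the dose by colour and the sex and genotype by marker. For Psmb5 and Psmb8 the 10-PFOS mice lie at the upper left, apart from the 0-PFOS mice, for which the count ratio is at most 3.38.

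Other genes of the ubiquitin and proteasome system were described from lists written with earlier results of these data known. Beside the 31 members, Adrm1, a further ubiquitin receptor of the regulatory particle, rose in all 4 groups (1.17 ± 0.13 (adjusted p = 2.92e-07) in hCYP2B6-Tg females, 0.76 ± 0.13 (adjusted p = 9.13e-05) in Cyp2b-null females, 0.51 ± 0.10 (adjusted p = 0.000299) in hCYP2B6-Tg males and 0.55 ± 0.10 (adjusted p = 0.000145) in Cyp2b-null males). Sem1, a small lid subunit, fell in Cyp2b-null males and was not called elsewhere, with 0.35 ± 0.17 (adjusted p = 0.097) in hCYP2B6-Tg females, -0.05 ± 0.17 (adjusted p = 0.838) in Cyp2b-null females, -0.04 ± 0.20 (adjusted p = 0.874) in hCYP2B6-Tg males and -0.54 ± 0.20 (adjusted p = 0.0301) in Cyp2b-null males. Of the 9 assembly factors, 8 were tested and 3 rose in hCYP2B6-Tg females, 3 rose in Cyp2b-null females, 4 rose in hCYP2B6-Tg males and 3 rose in Cyp2b-null males. Of all tested genes 22.3%, 19.1%, 24.1% and 22.5% rose at 10-PFOS in the same order of groups. Psmg1 and Psmg2, the pair that builds the alpha ring, and Psmd5, a chaperone of the base, rose in every group, with log2 changes of 0.61 in hCYP2B6-Tg females, 0.42 in Cyp2b-null females, 0.80 in hCYP2B6-Tg males and 0.63 in Cyp2b-null males for Psmg1, 0.71 in hCYP2B6-Tg females, 0.63 in Cyp2b-null females, 0.65 in hCYP2B6-Tg males and 0.62 in Cyp2b-null males for Psmg2 and 0.93 in hCYP2B6-Tg females, 1.24 in Cyp2b-null females, 0.87 in hCYP2B6-Tg males and 0.98 in Cyp2b-null males for Psmd5. Psmg4 rose in hCYP2B6-Tg males (0.68 ± 0.18) and had 0.20 to 0.39 elsewhere. Psmg3, the maturation factor Pomp and the base chaperones Psmd9 and Psmd10 were not called in any group, with log2 changes from -0.18 (Psmd9, Cyp2b-null males) to 0.55 (Psmg3, Cyp2b-null females), and Paaf1 was not tested.

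Nfe2l1 encodes the transcription factor of the proteasome genes, which is made in the endoplasmic reticulum, extracted by Vcp, deglycosylated by Ngly1 and cut by the protease Ddi2. Vcp rose in all 4 groups, with 0.89 ± 0.12 (adjusted p = 3.08e-06) in hCYP2B6-Tg females, 0.74 ± 0.12 (adjusted p = 4.42e-05) in Cyp2b-null females, 0.43 ± 0.08 (adjusted p = 0.000132) in hCYP2B6-Tg males and 0.66 ± 0.08 (adjusted p = 6.34e-07) in Cyp2b-null males. Nfe2l1 itself had 0.52 ± 0.17 (adjusted p = 0.015) in hCYP2B6-Tg females, 0.27 ± 0.17 (adjusted p = 0.225) in Cyp2b-null females, 0.35 ± 0.13 (adjusted p = 0.0296) in hCYP2B6-Tg males and 0.29 ± 0.13 (adjusted p = 0.0816) in Cyp2b-null males, so it passed the test in hCYP2B6-Tg mice of both sexes and not in Cyp2b-null mice. The interaction of genotype with dose was not called for this gene at 10-PFOS in either sex, as for every tested gene. Ngly1 had 0.43 in hCYP2B6-Tg females, 0.32 in Cyp2b-null females, 0.05 in hCYP2B6-Tg males and 0.27 in Cyp2b-null males and passed in all but hCYP2B6-Tg males. Ddi2 fell in hCYP2B6-Tg males (-0.50 ± 0.13) and Cyp2b-null females (-0.44 ± 0.10) and was not called in hCYP2B6-Tg females (0.08) or Cyp2b-null males (-0.29). Of the pair that removes misfolded proteins from the endoplasmic reticulum, Sel1l fell in both groups of males (-0.37 in hCYP2B6-Tg and -0.39 in Cyp2b-null males) and had -0.18 in the females of hCYP2B6-Tg and -0.22 in those of Cyp2b-null, and Syvn1 rose in Cyp2b-null females (0.43) and had 0.08 to 0.31 elsewhere.

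Of the other lists, counts of genes that rose at 10-PFOS are given for hCYP2B6-Tg females, Cyp2b-null females, hCYP2B6-Tg males and Cyp2b-null males in this order. They stand beside 22.3%, 19.1%, 24.1% and 22.5% of all tested genes that rose. Of 5 activators and inhibitors of the core, 4, 3, 3 and 3 rose, from Psme2 (-0.27 in hCYP2B6-Tg females, where it fell) to Psmf1 (0.71 there). Psme2 shares sequence with Psme2b, so its reads may be split. Of 10 proteins that associate with the proteasome, 8, 9, 7 and 8 rose, with Usp14, a deubiquitinase that binds the base, at 0.59 in hCYP2B6-Tg females, 0.67 in Cyp2b-null females, 0.33 in hCYP2B6-Tg males and 0.64 in Cyp2b-null males. The list ran from -0.11 (Uchl5, hCYP2B6-Tg males, not called) to 0.86 (Ubqln2, Cyp2b-null males). Of 5 partners of Vcp and autophagy receptors, 3, 3, 2 and 3 rose, from Herpud1 (-0.32 in hCYP2B6-Tg females, not called) to Sqstm1 (1.00 there).

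The cytosolic chaperonin, another large complex with fixed proportions, rose in most subunits, 8, 8, 7 and 7 of 8 in the same order of groups, with medians of 0.61 in hCYP2B6-Tg females, 0.61 in Cyp2b-null females, 0.76 in hCYP2B6-Tg males and 0.63 in Cyp2b-null males. Its extremes were Cct8 (0.02 in Cyp2b-null males, not called) and Cct3 (1.23 in hCYP2B6-Tg females). Beside the lists of this paragraph, 22.3%, 19.1%, 24.1% and 22.5% of all tested genes rose in that order of groups. Of the 9 subunits of the COP9 signalosome, a complex related to the proteasome lid, 5, 5, 5 and 6 rose, with medians of 0.35 in hCYP2B6-Tg females, 0.35 in Cyp2b-null females, 0.48 in hCYP2B6-Tg males and 0.45 in Cyp2b-null males, from Cops7b (-0.73) to Cops6 (0.76) in hCYP2B6-Tg females, and Cops7b fell in every group but Cyp2b-null females. Of the list of 11, Nfe2l2 and 10 targets of its product NRF2, a transcription factor of the oxidative stress response, 8, 8, 8 and 7 rose. The largest was Gsta1, a glutathione transferase, with 4.93 in hCYP2B6-Tg females, 5.50 in Cyp2b-null females, 5.10 in hCYP2B6-Tg males and 5.01 in Cyp2b-null males, and Nqo1 had 2.45 in hCYP2B6-Tg females, 1.62 in Cyp2b-null females, 2.62 in hCYP2B6-Tg males and 2.62 in Cyp2b-null males. The lowest value of the list was Gclc in hCYP2B6-Tg males (-0.19, not called). At 1-PFOS, Nqo1, Srxn1, Gsta1, Gstm1 and Slc7a11 passed the test in hCYP2B6-Tg males and Gsta1, Gstm1, Gsr and Slc7a11 in Cyp2b-null males, with no gene of this list called in either group of females.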

How the data were processed

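Liver RNA of 48 mice was sequenced, 1 library per mouse, so that p-values measure the spread between mice. Per the study's methods, reads were checked with FastQC, trimmed with Trim Galore, aligned to mouse GRCm39 with RSEM and counted with featureCounts, and no source used here gives versions. The authors deposited a table of raw counts per gene for each sex. Each held 25 broken rows, which were left out with 0.0432% of the counts in females and 0.0281% in males. Even numbers made up 91.1% of the non-zero counts in females and 91.2% in males, and no source used here says how mates of a read pair were counted. The other 168 files hold fold changes and p-values of the authors' own comparisons and were not used, nor were 64 columns of values per sample in 8 of them.

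Genes above 1 CPM in at least 3 of the 4 mice of a group were kept, 13193 in females, 12594 in males and 13271 in the fit of both sexes. Counts were scaled by TMM, and each sex was fitted with all 6 groups (edgeR 4.0.16, glmQLFit and glmQLFTest, R 4.3.3). P-values were adjusted by Benjamini-Hochberg over all tested genes, and a gene was called at an adjusted p below 0.05. A log2 change is 10-PFOS or 1-PFOS against 0-PFOS unless stated, with its SE. This SE was derived from the test, as the absolute log2 change divided by the square root of its F statistic. Mean log2 CPM of a particle used no prior count. A prior count of 2 was used for the correlations between members and between same-numbered mice. All 31 members are named. Values of every mouse are given for Psmb5, Psmb6 and Psmb7 and, in each particle, for the 2 members with the largest and the 1 with the smallest median log2 change at 10-PFOS over the 4 groups. Psmd11 and Psmd14 at other comparisons and single genes of the other lists were added after their values were seen, beside the extremes of each list and every gene of the tissue-specific core, NFE2L1 and assembly lists. The list of ubiquitin and ubiquitin-activating genes is not reported here. The members and lists were chosen with earlier results of these data known. The alternatives were RLE factors, library totals, DESeq2 1.42.0, no filter, a stricter filter, fits of the compared groups alone, a replicate block, halved counts, the fold threshold of the study and leaving out each mouse. Code was tested on simulated data. Figures were drawn with matplotlib 3.10.9 (Python 3.11.15). No pair of libraries of a group agreed within sampling noise (lowest chi-square per degree of freedom 36.26). Replicate numbers are shared between groups in the labels. The lowest correlation of deviations between same-numbered mice was above 0.1 in 1 of 18 comparisons, between genotypes at 1-PFOS in females (0.241 to 0.481). The numbers were thus read as a possible pairing there alone. The fit with the replicate block also called 0 members there. That block is 1 effect per replicate number shared by all 6 groups of a sex. It does not pair the genotypes at 1-PFOS in females by themselves, and no such paired test was run.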

Additional observations from a re-analysis of the deposited data

Results flagged for a closer look

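In 4 members, in the mean of the regulatory particle and in the difference between the particles, 1 mouse stood far from the other 3 of its group. Psmb5 at 1-PFOS in Cyp2b-null females was 41.1 CPM in replicate 1 and 34.8 to 35.6 CPM in the others, a gap of 0.883 of the whole range of the group. Psmb6 at 0-PFOS in Cyp2b-null females was 59.4 CPM in replicate 1 and 63.0 to 63.2 CPM in the others (gap 0.948 of the range). Psmb7 at 0-PFOS in hCYP2B6-Tg males was 73.6 CPM in replicate 3 and 83.5 to 84.3 CPM in the others (0.92). Psmd7 at 1-PFOS in hCYP2B6-Tg males was 39.3 CPM in replicate 1 and 35.5 to 35.6 CPM in the others (0.969). In the same mouse the mean log2 CPM of the regulatory particle was 5.92, against 5.82 to 5.84 in the other 3 (0.858). The core minus the regulatory particle at 10-PFOS in Cyp2b-null females was -0.10 in replicate 1 and 0.01 to 0.02 in the others (0.855). These were 6 of 120 sets of 4 mice examined, and chance alone gives about 1 in 20.

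In hCYP2B6-Tg mice, the 10-PFOS change of 4 members differed between the sexes by the interaction term of the edgeR fit. The differences in log2 change, females minus males, were 0.70 for Psmd11, 0.56 for Psmd4, 0.50 for Psma5 and 0.43 for Psmc4, with the adjusted p-values and the dependence on scaling given in the report.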

How the results depend on the processing

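At 10-PFOS all 31 members were called in each group with RLE factors, library totals, DESeq2, a stricter filter, halved counts and the replicate block. Without a filter 30 were called in hCYP2B6-Tg and 28 in Cyp2b-null males, and in a fit of the compared groups alone 30 in Cyp2b-null males. With 1 mouse left out the counts were 31 in both groups of females, 29 to 31 in hCYP2B6-Tg males and 28 to 31 in Cyp2b-null males. The fold threshold of the study left 8 members in hCYP2B6-Tg females, 3 in Cyp2b-null females and 1 in each group of males at 10-PFOS, and 0 at 1-PFOS, between the doses and between the sexes of hCYP2B6-Tg mice. At 1-PFOS the count in hCYP2B6-Tg females was 8, and 14 with DESeq2, 5 without a filter, 0 in a fit of the compared groups alone and 4 to 12 with 1 mouse left out. In Cyp2b-null females it was 0, and 2 with DESeq2. In hCYP2B6-Tg males it was 15, and 3 with library totals, 6 without a filter and 8 to 13 with 1 mouse left out. In Cyp2b-null males it was 5, and 0 with library totals, without a filter or in a fit of the compared groups alone, and 0 to 6 with 1 mouse left out. Between the doses, counts with 1 mouse left out were 25 to 27 in hCYP2B6-Tg females, 27 to 30 in Cyp2b-null females, 16 to 21 in hCYP2B6-Tg males and 24 to 26 in Cyp2b-null males. The sex difference in hCYP2B6-Tg mice counted 4 members, 2 with library totals, in the other direction, and 3 to 8 with 1 mouse left out. The core minus the regulatory median ran from -0.1811 to -0.0331 in hCYP2B6-Tg females, from -0.1377 to 0.0038 in Cyp2b-null females, from -0.0482 to 0.0487 in hCYP2B6-Tg males and from -0.1212 to -0.0293 in Cyp2b-null males with 1 mouse left out. Library totals moved the median change in males, to 0.86 (core) and 0.87 (regulatory) in hCYP2B6-Tg and 0.76 and 0.84 in Cyp2b-null mice. The cause of these shifts was not tested. The lowest correlation of deviations between same-numbered mice was above 0.1 only between genotypes at 1-PFOS in females, and in the same comparison in males it was 0.086, with 3 of 4 pairs above 0.1. With the replicate block the counts were 31 in each group at 10-PFOS, and at 1-PFOS 8 in hCYP2B6-Tg females, 0 in Cyp2b-null females, 13 in hCYP2B6-Tg males and 4 in Cyp2b-null males, and no count moved by over 1.5 times. Members had 968 or more counts in each library.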

Other observations

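At 1-PFOS some partners of the proteasome passed the test of the edgeR fit and many did not. Counts that rose are given for hCYP2B6-Tg females, Cyp2b-null females, hCYP2B6-Tg males and Cyp2b-null males in this order. They were 1, 0, 1 and 1 of 6 (NFE2L1 list), 2, 0, 4 and 1 of 8 (chaperonin) and 0, 0, 2 and 1 of 8 (assembly factors). They were 0, 0, 1 and 1 of 10 (associated proteins) and 0, 0, 2 and 1 of 5 (activators and inhibitors). Of all tested genes 1.69%, 0.432%, 8.72% and 2.32% rose. Vcp, the ATPase that extracts ubiquitinated proteins from membranes and complexes, rose in hCYP2B6-Tg females (0.55 ± 0.12 on the log2 scale, SE), hCYP2B6-Tg males (0.26 ± 0.08) and Cyp2b-null males (0.35 ± 0.08) and had 0.21 ± 0.12 in Cyp2b-null females. Cct3, a chaperonin subunit, rose in the same 3 groups (0.57, 0.48 and 0.38 in the same order) and had 0.17 in Cyp2b-null females. Psmd5, Usp14 and Psmf1 rose in both groups of males and passed the test in neither group of females. Nfe2l1 was not called at 1-PFOS in any group, with log2 changes from -0.19 in hCYP2B6-Tg females to -0.07 in hCYP2B6-Tg males.

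Of the 6 hepatocyte markers, 4 fell at 10-PFOS in hCYP2B6-Tg females, Cyp2b-null females and hCYP2B6-Tg males and 5 in Cyp2b-null males. Of all tested genes 24.5% fell and 22.3% rose in hCYP2B6-Tg females, and 17.8% and 19.1% in Cyp2b-null females. In males these shares were 23.9% and 24.1% in hCYP2B6-Tg and 21.6% and 22.5% in Cyp2b-null mice. Alb, which encodes serum albumin, had log2 changes of -1.59 ± 0.17 in hCYP2B6-Tg females, -1.19 ± 0.17 in Cyp2b-null females, -0.97 ± 0.15 in hCYP2B6-Tg males and -0.96 ± 0.15 in Cyp2b-null males, and Ttr, the thyroxine carrier transthyretin, had -1.08 to -1.23. Apob, which encodes the main apolipoprotein of very low density lipoprotein, was not called in any group (-0.22 to 0.05), and Tat fell in Cyp2b-null males alone (-0.58) and had 0.06 in hCYP2B6-Tg males. Of 5 erythroid genes, 4 fell in each group of females and 5 in each group of males, the globin genes among them in all 4 groups. Of 5 endothelial markers 1, Lyve1, rose in each group (by 1.52 to 2.54), whereas Clec4g fell in each (-0.95 in hCYP2B6-Tg females, -0.66 in Cyp2b-null females, -0.47 in hCYP2B6-Tg males and -0.51 in Cyp2b-null males), and the median of the list ran from -0.33 to 0.13. The bearing of these cell type markers on the members was not tested.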
